A study of Mus musculus with 3 samples.

Results

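Transcripts of splicing factors and other RNA-binding proteins were examined in retinas of wild-type mouse pups, 10 days after birth. The genes were selected by name, from the gene symbol families of the SR proteins, the heterogeneous nuclear ribonucleoproteins (hnRNPs), the proteins of the small nuclear ribonucleoproteins (snRNPs), the SF3 and U2AF factors, the PRPF proteins, the DDX helicases, the numbered RBM proteins, the ELAV, CELF, KHDRBS, PTB, NOVA and Musashi regulators, and the poly(A)-binding proteins. This gave 141 probe sets of 102 genes out of 12422 non-control probe sets on the array. The rule itself reads gene symbols and no signal. All 3 samples are one group of wild-type animals from litters that also held Rp1 mutants, on a mixed background of 129/SvEv and C57BL/6. Each was a pool of neural retinas from 3 to 4 mice, collected between 1 and 2 pm, and total RNA was hybridised to an Affymetrix U74Av2 array. The titles of pools 2 and 3 contain the name Rp1, whereas the descriptions give all 3 as wild type, and the descriptions were followed. Pool numbers are names only, no group was available to compare with, and no test between conditions was made. The labels do not say whether a mouse contributed to more than 1 pool.

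Pre-mRNA splicing is carried out by the spliceosome, which assembles on each intron from snRNPs and many further proteins. SR proteins bind exons and recruit this machinery, hnRNPs often act against them, and DEAD-box helicases of the DDX family remodel RNA at nearly every step of its life. Neurons use additional regulators, among them the ELAV, CELF and PTB proteins. The retina has a known link to this machinery, because mutations in several genes of the tri-snRNP, PRPF8 and PRPF31 among them, cause retinitis pigmentosa in people.

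The deposited value of a probe set is a linear signal without a unit. Background was taken per array as the 90th percentile of 98 probe sets whose genes belong to liver, pancreas, muscle and further organs outside the eye, and this limit lay at 443.1, 544.9 and 410.3 in pools 1, 2 and 3. A signal under the limit does not show that the transcript was missing. Signals are given below in the order of pools 1, 2 and 3, and signals of different probe sets were not compared as amounts of transcript. The pools differed in other tissue and cell type markers. The 8 measured lens genes were each highest in pool 3 on their brightest probe set, 5 were above background on all arrays, and they held 1.49%, 0.265% and 3.22% of the summed signal. The 5 measured rod genes, all above background throughout, summed to 35943, 38999.9 and 66537 signal units. The 5 measured genes of dividing cells summed to 2655, 2262 and 1819 units, 2 of them were above background throughout, and 4 of the 5 were lowest in pool 3. For the Actb control, the 3′ set over the 5′ set gave 1.197, 1.44 and 1.69, and for the Gapdh control 0.95, 0.88 and 0.93. Red blood cell genes summed to 21740.1, 4512 and 14756 units. Pool 3 was highest for 3 of 3 vessel genes and 3 of 4 Müller glia genes and lowest for 3 of 3 microglia genes, none of which was above background on all arrays. Of 6 inner retinal neuron genes and 4 Müller glia genes, 5 and 4 were above background on all arrays, and all 5 rod genes were, whereas none of 5 pigment epithelium genes was.

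RNA-binding protein transcripts were above background more often than the array as a whole. On all 3 arrays, 70 of the 141 probe sets (49.6%) exceeded the limit, against 26.6% of all probe sets. On no array did 52 (36.9%), against 60.4% of all probe sets, and the other 19 did so on 1 or 2 arrays. By gene, 62 of 102 had at least 1 probe set above background throughout and 28 had none above it on any array. Of the 8251 genes with a single-symbol probe set on the array, the same held for 2717 and 4314. The families differed in this share. Of the SF3 and U2AF probe sets 12 of 13 were above background on all arrays, of the hnRNPs 15 of 22, of the SR proteins 9 of 16, of the snRNP proteins 5 of 10, of the RBM proteins 7 of 14, of the PRPF proteins 4 of 10, of the poly(A)-binding proteins 2 of 5, of the DDX helicases 12 of 37 and of the ELAV, CELF, PTB, KHDRBS and Musashi group 4 of 14. No NOVA gene was among the probe sets analysed here.

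The SR proteins, which carry repeats of arginine and serine and bind exonic enhancers, were among the steadiest and the most variable members. Srsf2, which promotes exon inclusion and was formerly named SC35, had a probe set with signals of 8484, 8637 and 8271, the narrowest range of all members at 1.04-fold. A second Srsf2 set read 1605, 1423 and 1354. Srsf5 read 2776, 3318 and 3585 and Srsf11 1833, 2215 and 2664, both lowest in pool 1 and highest in pool 3. Srsf6 read 2059, 1321 and 1446, Srsf9 1698, 1281 and 1499 and the brighter Srsf4 set 1541, 1326 and 1662. All of these sets were above background in every pool, and none had a 2-fold range.

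Srsf3, the smallest of the classical SR proteins, differed more. Its brighter set, of the _f_at kind that can match several family members, read 995.5, 1687 and 630.0, a 2.68-fold range with an SD of 0.71 on the log2 scale (n = 3). Its dimmer set stayed under the limit in every pool, at 263.1, 466.0 and 152.2. Both sets were highest in pool 2 and lowest in pool 3. Srsf1, formerly ASF/SF2, showed that order on both of the sets that were above background on average. The first read 701.0, 816.1 and 620.5 and the second 551.5, 721.2 and 327.9, below the limit in pool 3. The other 2 Srsf1 sets were not above background in any pool. The Srsf10 sets read 459.4, 323.2 and 484.7 and 428.3, 531.0 and 299.8, close to the limit, and differed from each other in the order of the pools.

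The windows upstream of 3 members are shown because Srsf2 had the narrowest range, while Srsf3 and Elavl1, the ubiquitous ELAV protein also named HuR, were among the widest and were both lowest in pool 3. Each is the run of 250 bases before the annotated start, 5′ to 3′ on the gene's strand, from RefSeq on build GRCm38.p6. Capitals mark, on either strand, the TATA box letters TATAAA, the GC box letters GGGCGG, the CCAAT box and the ETS core letters CCGGAA. The Srsf2 window is chr11:116853095-116853344 on the minus strand, the Srsf3 window chr17:29032410-29032659 on the plus strand and the Elavl1 window chr8:4325101-4325350 on the minus strand.
Srsf2: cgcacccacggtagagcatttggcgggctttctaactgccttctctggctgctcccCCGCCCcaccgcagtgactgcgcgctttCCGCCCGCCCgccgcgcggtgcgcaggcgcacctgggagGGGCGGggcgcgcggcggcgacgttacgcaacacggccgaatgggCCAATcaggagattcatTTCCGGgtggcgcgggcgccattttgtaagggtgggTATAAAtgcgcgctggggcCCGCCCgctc
Srsf3: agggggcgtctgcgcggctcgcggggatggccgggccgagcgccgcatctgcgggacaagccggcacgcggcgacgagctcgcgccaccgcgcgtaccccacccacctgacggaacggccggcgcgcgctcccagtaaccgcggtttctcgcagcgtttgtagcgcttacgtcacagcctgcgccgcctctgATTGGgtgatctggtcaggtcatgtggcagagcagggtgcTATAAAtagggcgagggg
Elavl1: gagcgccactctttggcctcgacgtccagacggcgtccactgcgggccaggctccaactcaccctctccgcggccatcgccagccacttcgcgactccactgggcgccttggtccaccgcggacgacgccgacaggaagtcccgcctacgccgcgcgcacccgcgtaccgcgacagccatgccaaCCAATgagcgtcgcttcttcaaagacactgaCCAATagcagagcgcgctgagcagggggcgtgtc
The GC content of these windows was 69.6%, 69.6% and 67.6%. The Srsf2 window held 1 TATA box match, 5 GC box matches, 1 CCAAT box and 1 ETS core match, the Srsf3 window 1 TATA box and 1 CCAAT box match, and the Elavl1 window 2 CCAAT box matches. A match describes letters only and is not evidence of binding.

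RefSeq windows were found for 87 of the 102 genes, 118 windows in all, and were set beside the 8408 windows of the 6572 genes with a single-symbol probe set on the array. Either strand was searched, and motifs can overlap. Letters of the ETS core, CCGGAA, occurred in 42 windows (35.6%), against 18.6% of windows of genes on the array and 12.03% of all windows in the table. CCAAT occurred in 60 (50.8%), against 34.6% and 33.8%. GGGCGG occurred in 67 (56.8%), against 52.8% and 32.7%, and TATAAA in 11 (9.32%), against 8.93% and 12.4%. The median GC content was 59.4%, against 58.8% for genes on the array, and the median number of CpG steps was 19 against 14.

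The hnRNPs coat nascent transcripts and govern splice site choice, export and stability. Hnrnpa2b1, which also binds transport signals in neuronal RNAs, read 4969, 5472 and 4461 on its brighter set, and a second set read 383.0, 533.2 and 447.1. Hnrnpd (AUF1), which binds AU-rich elements, read 2032, 1868 and 1825, a 1.11-fold range, and was 1 of the 8 narrowest probe sets. Hnrnpk read 1709, 2276 and 1543 and Hnrnph1 4909, 5622 and 3873, both highest in pool 2 and lowest in pool 3. Of the 16 hnRNP sets above background on average, 9 had their highest signal in pool 2, against 33.3% of all such sets on the array, and 11 their lowest in pool 3, against 36.4%. In these 16 sets the median deviation from a set's own mean was 0.06, 0.21 and -0.20 on the log2 scale. The widest hnRNP set among these 16 was that of Hnrnpll, a regulator known from lymphocyte CD45 splicing, at 1075, 877.6 and 556.3, a 1.93-fold range. Hnrnpm read 2597, 2488 and 1476 and Hnrnpl, the paralogue of Hnrnpll, 1060.1, 1220.2 and 796.5. In these 3 genes pool 3 had the lowest signal. The 2 sets of Hnrnpul2 followed each other, at 848.1, 933.4 and 671.3 and at 614.5, 684.4 and 483.9. Hnrnpr read 801.5, 1040.1 and 690.2, again lowest in pool 3, while Hnrnph3 read 1093, 856.7 and 889.7, lowest in pool 2. The set for Hnrnpc, a core hnRNP protein, was not above background in any pool, at 224.4, 441.9 and 228.6. The single-symbol Hnrnpa1 set read 444.1, 488.2 and 541.3 and was above background in pools 1 and 3. No hnRNP set above background on average had a range over 2-fold, against 10.4% of all such probe sets. The same held for the PRPF and the poly(A)-binding sets.

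The snRNP proteins form the core of the spliceosome. Snrpb encodes the Sm B protein, a subunit of the ring around most spliceosomal snRNAs. Its brighter set read 11856, 11769.8 and 11291, a 1.05-fold range, while its other set was not above background in any pool, at 119.3, 125.6 and 81.6. Snrpg, another Sm ring protein, read 2108, 1949 and 1706, Snrpe 1532, 2182 and 1487 and Snrpc, a U1 snRNP protein, 1300.1, 1065 and 1019. The U2 snRNP genes Snrpa1, at 266.6, 293.7 and 248.0, and Snrpb2, whose sets read 252.1, 177.9 and 232.6 and 169.9, 158.4 and 114.8, were not above background on any array. Snrpd3, a further Sm protein, read 732.2, 661.4 and 365.7 and lay below the limit in pool 3, so that its range was 2.00-fold as measured and 1.78-fold with pool 3 taken at the limit. A set assigned to the pseudogene Snrp1c-ps2 read 1455, 826.9 and 1109, and its _f_at kind means that other transcripts of similar sequence can contribute.

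U2AF binds the 3′ splice site and the SF3 complexes belong to the U2 snRNP, which recognises the branch point. U2af2, the large U2AF subunit, read 6525, 6623 and 7623, U2af1, the small subunit, 1312, 1037 and 1134, and U2af1l4 845.1, 917.6 and 928.3. The U2af1l4 range was 1.10-fold, among the 8 narrowest. Of SF3B, the complex that holds the branch site, Sf3b1 had 2 sets, which read 1877, 1877 and 1129 and 533.4, 848.0 and 640.5. Pools 1 and 2 were tied on the first set, and the lowest pool differed between the sets. Sf3b2 read 789.4, 676.2 and 626.7, Sf3b3 776.0, 741.2 and 540.8, Sf3b5 608.6, 838.9 and 699.7 and Sf3b6, the p14 branch-site protein, 1455, 2139 and 1465. Sf3a1 read 439.5, 547.0 and 613.5 and Sf3a3 869.3, 890.8 and 664.4. The 2 sets of Sf3a2, which stem from the same database sequence, went apart. The _f_at set read 3526, 2742 and 3212, a 1.29-fold range, whereas the _r_at set read 1869.6, 1416 and 4677, a 3.30-fold range, the widest of all members above background on average. Both were lowest in pool 2, but only the _r_at set was highest in pool 3.

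Of the PRPF genes, which act mostly in the tri-snRNP and in activation of the spliceosome, 4 probe sets were above background throughout. Prpf8, the central scaffold of the catalytic core, read 3279, 1899 and 2212, highest in pool 1. Prpf6, a bridge within the tri-snRNP, read 1939.5, 1776 and 1458. Prpf31, needed to assemble the tri-snRNP, read 594.0, 557.3 and 939.6, 1 of 2 members whose signal in pool 3 exceeded both other pools by more than 0.5 on the log2 scale. Prpf19, a ubiquitin ligase of the spliceosome, read 1480.1, 1485 and 1360.2 with a range of 1.09-fold, and its second set, 262.9, 305.0 and 73.8, was not above background in any pool. The kinase gene Prpf4b was not above background on any array, at 294.3, 450.3 and 216.2, nor was Prpf38a, at 391.5, 519.1 and 405.6, or either set of Prpf39. Prpf38b lay near the limit, at 498.3, 350.5 and 421.7.

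The DDX helicases were the largest family and 16 of 37 probe sets (43.2%) were not above background on any array, against 60.4% of all probe sets. Ddx5 and Ddx17, paralogues that act in splicing and as cofactors of transcription, read 4118, 5012 and 5005 and, on the brighter Ddx17 set, 5947, 5463 and 5794. The second Ddx17 set read 1595, 1975 and 2200.4. Ddx39b (UAP56), which links splicing to export, read 4410.2, 3665 and 3426. Ddx1 read 1364, 1669 and 1818 on its brighter set. Ddx6, a repressor of translation in P-bodies, read 1755, 1029.8 and 1187 on the brightest of 3 sets and 477.3, 632.9 and 587.1 on the next, which differed in order. Ddx19b, which acts in export at the nuclear pore, read 583.2, 931.5 and 723.8, Ddx47 1074, 814.3 and 677.1 on its brighter set and Ddx56, a nucleolar helicase, 709.4, 628.2 and 642.3. Ddx46, which acts with the U2 snRNP, read 614.4, 425.9 and 572.1, Ddx21 425.7, 598.0 and 410.4 and the brighter Ddx24 set 564.6, 362.3 and 557.3, each above background in 2 pools. Ddx4, the germ cell helicase Vasa, was not above background in any pool, at 77.5, 91.7 and 26.0. Ddx25, another helicase known from the testis, exceeded it in 1 pool on each of its sets, at 562.5, 469.4 and 300.2 and 319.8, 545.7 and 258.5. Ddx10, Ddx18, Ddx41, Ddx49, Ddx51, Ddx52 and Ddx54 were not above background on any array. Ddx3x, an X-linked helicase of translation initiation, read 1893, 2269 and 1086 on its brightest set, a 2.09-fold range, and 559.6, 633.3 and 343.8 on the next. The third set was not above background, at 105.2, 151.7 and 98.3, and all 3 were highest in pool 2 and lowest in pool 3. Xist, made from the silenced X chromosome of females, was likewise highest in pool 2 and lowest in pool 3, at 1168, 3166 and 71.5. The part of the sex of the pooled mice in the Ddx3x values was not tested.

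Among the RBM proteins, 7 of 14 sets (50%) were above background throughout and 7 (50%) on no array, against 26.6% and 60.4% of all probe sets. Rbm17 (SPF45), a factor for 3′ splice site choice, read 1221, 1133 and 1279.9 and Rbm18 1225, 1124 and 1094. Rbm8a (Y14), a core of the exon junction complex, read 936.9, 995.0 and 762.1 and Rbm4b 813.2, 800.8 and 1077. Rbm42 read 2487, 1339.7 and 2490.4, low in pool 2 alone. Rbm39 (CAPERalpha), which assists U2AF, had 2 sets of nearly equal mean that did not follow each other. One read 2191, 921.9 and 788.4, a 2.78-fold range with pool 1 far above the others, and the other read 1149, 1674 and 1171, highest in pool 2. Rbm6 read 178.8, 263.1 and 173.2, and the sets of Rbm6, Rbm14, Rbm15, Rbm22, Rbm25 and Rbm38 were not above background on any array.

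Of the neuronal and developmental regulators 4 of 14 sets (28.6%) were above background on all arrays, near the 26.6% of the whole array. Elavl1, which stabilises AU-rich mRNAs in most cells, read 1956, 1415 and 816.2, a 2.40-fold range with an SD of 0.64 on the log2 scale (n = 3). Pool 3 lay lowest. Its mean signal was 1396 ± 570.3 (SD, n = 3). Of its neuronal relatives, Elavl3 (HuC) read 485.3, 345.1 and 495.9 and exceeded background in pools 1 and 3, whereas Elavl2 (HuB), at 215.6, 242.6 and 152.3, and Elavl4 (HuD), at 127.9, 259.9 and 113.2, were not above it in any pool. Ptbp2, the neuronal PTB protein, read 878.8, 1334 and 702.7 on its brighter set, and Ptbp3 was not above background, at 199.6, 151.6 and 60.8. Celf2 read 1425, 1581 and 1002 on its brighter set and Celf4, enriched in brain, 1624, 1833 and 1609.5. The dimmer Celf2 set, at 401.3, 446.0 and 231.3, was not above background, and both Celf2 sets were highest in pool 2 and lowest in pool 3. Msi1 (Musashi 1), a regulator of neural progenitors and of photoreceptor splicing, read 427.3, 176.1 and 382.5 and Khdrbs1 (SAM68) 200.9, 166.9 and 270.1, neither above background on any array. All 4 sets of this group that were above background on average were lowest in pool 3, against 36.4% of all such probe sets.

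The poly(A)-binding proteins protect mRNA tails and control their length. Pabpc1, the main cytoplasmic form, read 4582, 2507 and 3992 and Pabpn1, the nuclear form, 3579, 1839 and 2283. Both were highest in pool 1 and lowest in pool 2, by 1.83-fold and 1.95-fold. Pabpc4 read 484.3, 519.9 and 511.4 on its brighter set, a 1.07-fold range, and Pabpc2, a form known from testis, was not above background in any pool, at 249.4, 296.5 and 183.7.

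**Figure D1:**
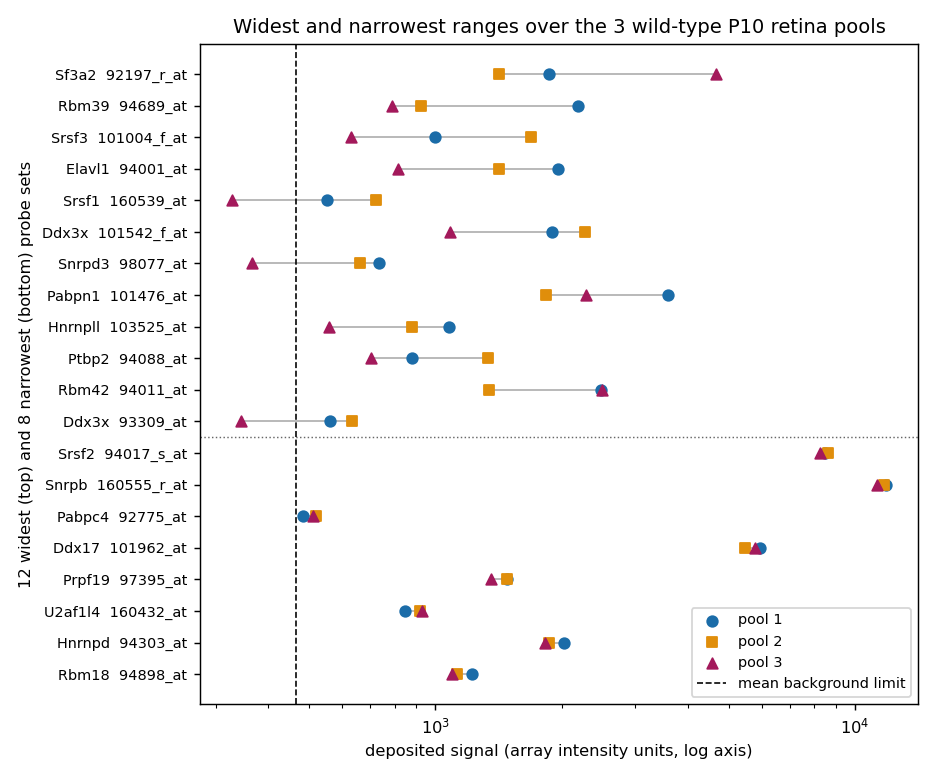
Signal of the 12 member probe sets with the widest and the 8 with the narrowest range (rows, gene and probe set), on a log axis in deposited intensity units, with 1 point for each of the 3 pools and a dashed line at the mean background limit. In 9 of the 12 widest sets the pool 3 triangle is the leftmost point, and the Srsf2 and Snrpb points nearly coincide. Of all array probe sets above the mean limit, whatever their range, 36.4% were lowest in pool 3.

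Genes with several probe sets showed how far a value depended on the probes. Of the 102 genes 32 had 2 to 4 sets, 71 sets in all, and in 13 of them 1 set was above background on all arrays while another was on none. These were Celf2, Ddx1, Ddx3x, Ddx50, Ddx6, Hnrnpab, Hnrnpdl, Hnrnpu, Prpf19, Ptbp2, Snrpb, Srsf1 and Srsf3. The brightest set of a gene had a median of 3.59 times the mean signal of its dimmest. The extremes were Hnrnpdl, a paralogue of Hnrnpd, with sets at 3613, 4853 and 3804 and at 14.2, 23.5 and 55.5, and Snrpb, described above. In Hnrnpu, scaffold attachment factor A, the brighter set read 1175, 1322 and 1617 and the other 125.7, 155.7 and 33.5. In Hnrnpab the sets read 1154, 1055 and 926.5 and 27.6, 103.4 and 104.6, and the brightest of 4 Ddx50 sets read 1112, 884.1 and 961.7. The dimmer Ddx1 set read 361.3, 463.0 and 347.2, the dimmest Ddx6 set 314.5, 454.6 and 380.4 and the dimmer Ptbp2 set 89.4, 244.5 and 138.0. In 11 genes at least 2 sets were above background on average, and their sets agreed in both the highest and the lowest pool in 4 (Ddx3x, Hnrnpdl, Hnrnpul2 and Srsf1). Sets of the _r_at kind, made with relaxed probe rules, were above background throughout in 2 of 13 cases and plain _at sets in 55 of 107. The same counts over the whole array are not given here, so none of these is read as particular to the members.

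**Figure D2:**
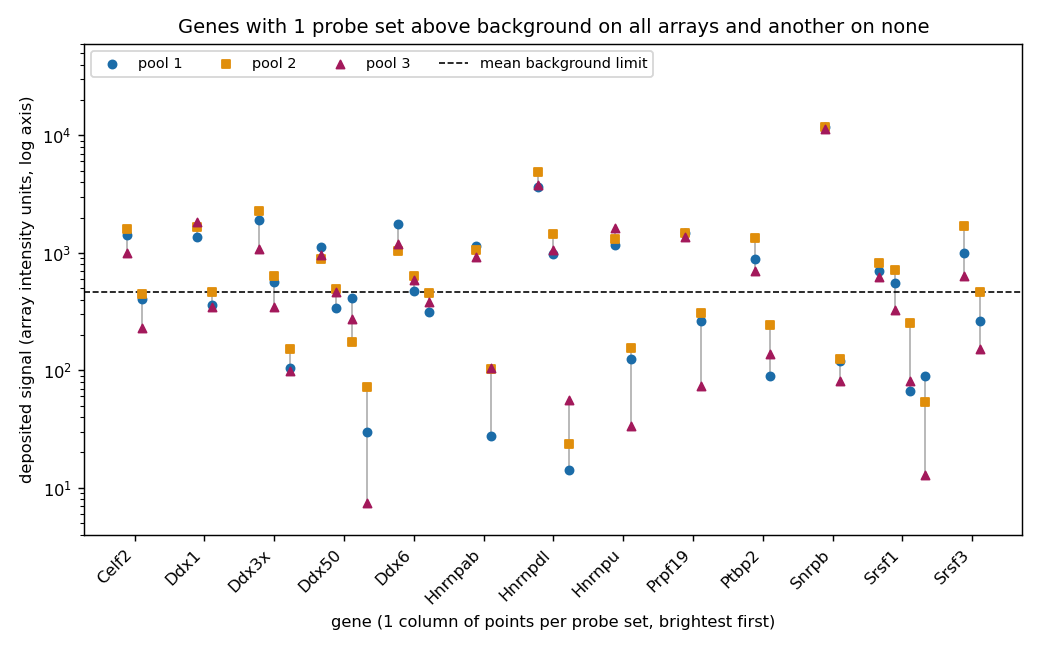
Signal on a log axis, in deposited intensity units, of every probe set of the 13 genes with 1 set above background on all arrays and another on none. Each column of 3 points is 1 probe set, brightest first, and the dashed line is the mean background limit. The dimmest sets of Ddx50 and Hnrnpdl lie below 100 in every pool, while those of Ddx1 and Ddx6 lie close under the line.

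Spread between the pools was similar for these genes and for the array as a whole. Of the members, 81 had a mean signal above the mean limit of 466.1, and their median SD was 0.24 on the log2 scale, against 0.26 for the 4081 such probe sets on the array. The median range was 1.40-fold for both. For the 60 dimmer members the SD had a median of 0.47 and the range one of 1.89-fold, against 0.61 and 2.23-fold for the 8341 dimmer probe sets of the array. The highest pool exceeded the lowest by over 1 log2 unit, or 2-fold, in 7 of the 81 (8.64%), against 10.4% of all such probe sets. These were sets of Sf3a2, Rbm39, Srsf3, Elavl1, Srsf1, Ddx3x and Snrpd3, and in 6 of the 7 pool 3 was lowest. For Srsf1 and Snrpd3 the lowest signal lay below background, and with it taken at the limit their ranges were 1.76-fold and 1.78-fold. Counted that way, 5 of the 81 (6.17%) exceeded 2-fold, against 6.91% of all such probe sets. Pool 3 was lowest in 4 of these 5, against 109 of the 282 array sets counted the same way. Leaving out a pool can only narrow a range. The count became 4 of 80 sets without pool 1 and 4 of 84 without pool 2. Without pool 3 it became 1 of 79, the Rbm39 set. Over the whole array these counts were 245 of 3987, 190 of 4332 and 148 of 3904. Across the 81 sets Pearson's r of log2 signal was 0.92 for pool 1 with pool 2, 0.92 for pool 1 with pool 3 and 0.90 for pool 2 with pool 3. The rank correlations (Spearman's rho) of the same pairs were 0.89, 0.90 and 0.88. The points are probe sets on shared arrays that differ in probe brightness, not replicates.

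**Figure D3:**
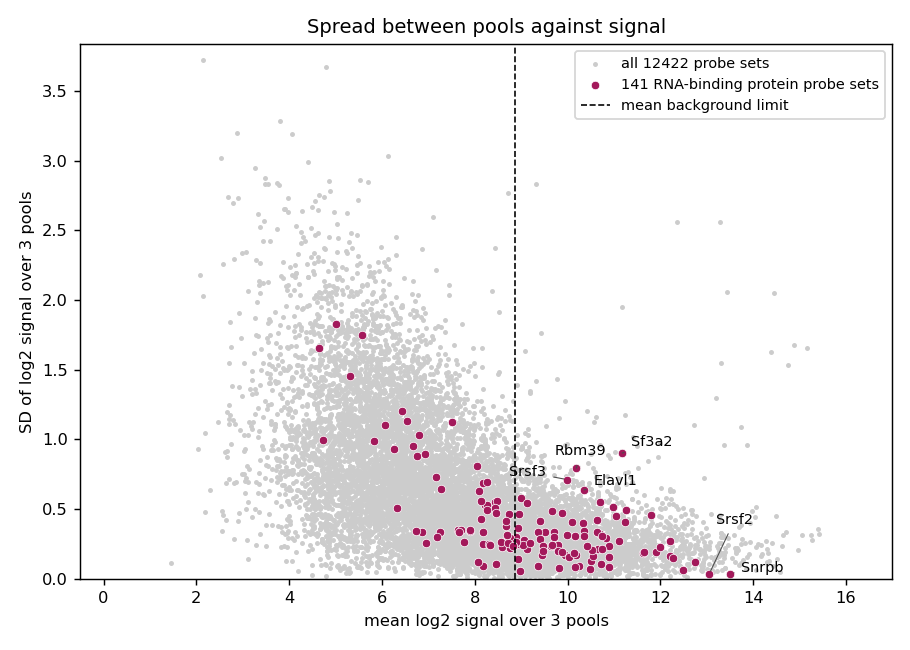
SD of log2 signal over the 3 pools against mean log2 signal, for all 12422 probe sets (grey) and the 141 members (coloured), with a dashed line at the mean background limit. The members lie within the grey cloud, with Sf3a2, Rbm39, Srsf3 and Elavl1 at SDs of 0.90, 0.79, 0.71 and 0.64 and Srsf2 and Snrpb near 0.

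Pool 3 was the lowest of the pools for many of these genes. Of the 81 sets above background on average, 40 (49.4%) were lowest in pool 3, against 36.4% of all such probe sets. Pool 1 was lowest in 20 (24.7%, against 27.6%) and pool 2 in 21 (25.9%, against 36.0%). Pool 3 was highest in 15 (18.5%), against 32.3%, while pool 1 was highest in 33 (40.7%, against 34.4%) and pool 2 in 33 (40.7%, against 33.3%). Over all 141 members, dim sets included, 69 (48.9%) were lowest in pool 3, against 35.2% of all probe sets. The median deviation of the 81 sets from their own mean was 0.07, 0.04 and -0.11 on the log2 scale in pools 1, 2 and 3, against 0.03, -0.01 and -0.02 for all probe sets above background on average. Members held 1.94%, 2.00% and 1.70% of the summed signal of the 3 arrays. This share also depends on the summed signal of each array, of which lens genes held 1.49%, 0.265% and 3.22%. Without pool 1, pool 3 was the lower in 63.8% of the 80 sets then above the mean limit, against 50.2% of all, and without pool 2 in 66.7% of 84, against 53.2%. Without pool 3, pool 1 was the lower in 50.6% of 79, against 47.2%.

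In 10 of the 81 sets (12.3%) pool 3 lay below both other pools by more than 0.5 on the log2 scale, against 6.20% of all such probe sets. They were sets of Elavl1, Srsf1, Srsf3, Celf2, Hnrnpll, Hnrnpm, Sf3b1, Snrpd3 and, with 2 sets, Ddx3x. In 3 of them, those of Snrpd3, Srsf1 and the dimmer of these Ddx3x sets, pool 3 lay below background. With pool 3 taken at the limit there, the last 2 no longer passed and 8 sets (9.88%) remained, against 5.12% of all such probe sets. The opposite was seen in 2 sets (2.47%), those of Sf3a2 and Prpf31, against 5.19%. By family, pool 3 was lowest in 11 of 16 hnRNP sets, 6 of 11 SR protein sets and 5 of 6 snRNP protein sets. It was lowest in 4 of 4 ELAV, CELF and PTB sets, 2 of 4 PRPF sets and 3 of 7 RBM sets. The counts were 4 of 13 for SF3 and U2AF sets, 5 of 17 for DDX sets and none of the 3 poly(A)-binding sets. Of all such probe sets 36.4% were lowest in pool 3. The lens markers and 4 of the 5 rod markers were highest in pool 3, dividing-cell markers were mostly lowest there, and the Actb end ratio was highest there, whereas the Gapdh ratio was highest in pool 1. Vessel markers, most Müller glia markers and 4 of 6 inner retinal neuron markers were highest in pool 3. Microglia markers, none of them above background on all arrays, were lowest there. The part of these markers and end ratios in the lower member signals was not tested. In pooled tissue, fewer cells of a type and less RNA per cell cannot be told apart. With 3 arrays and 1 group, these shares describe these pools alone.

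**Figure D4:**
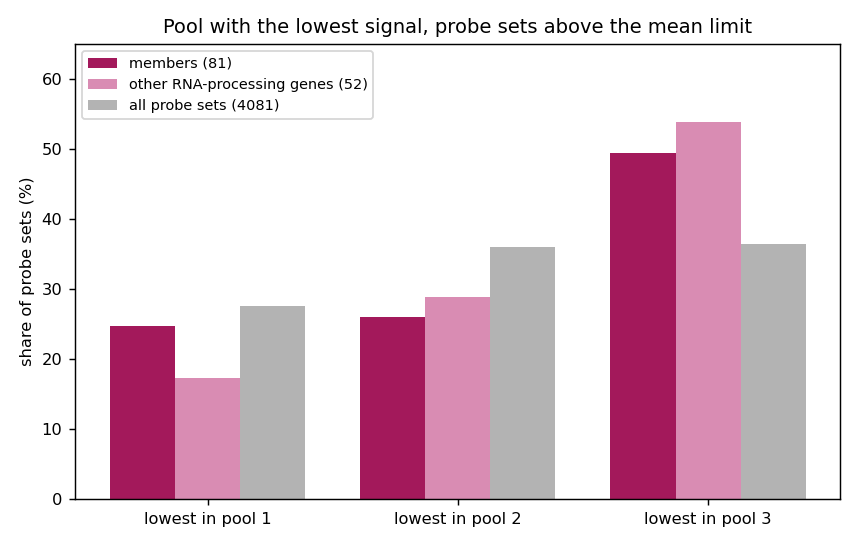
Share of probe sets, in percent, with their lowest signal in each pool, among sets above the mean background limit, for the 81 members, 52 sets of other RNA-processing genes and 4081 sets of the whole array. Bars for pool 3 stand at 49.4%, 53.8% and 36.4%.

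**Figure D5:**
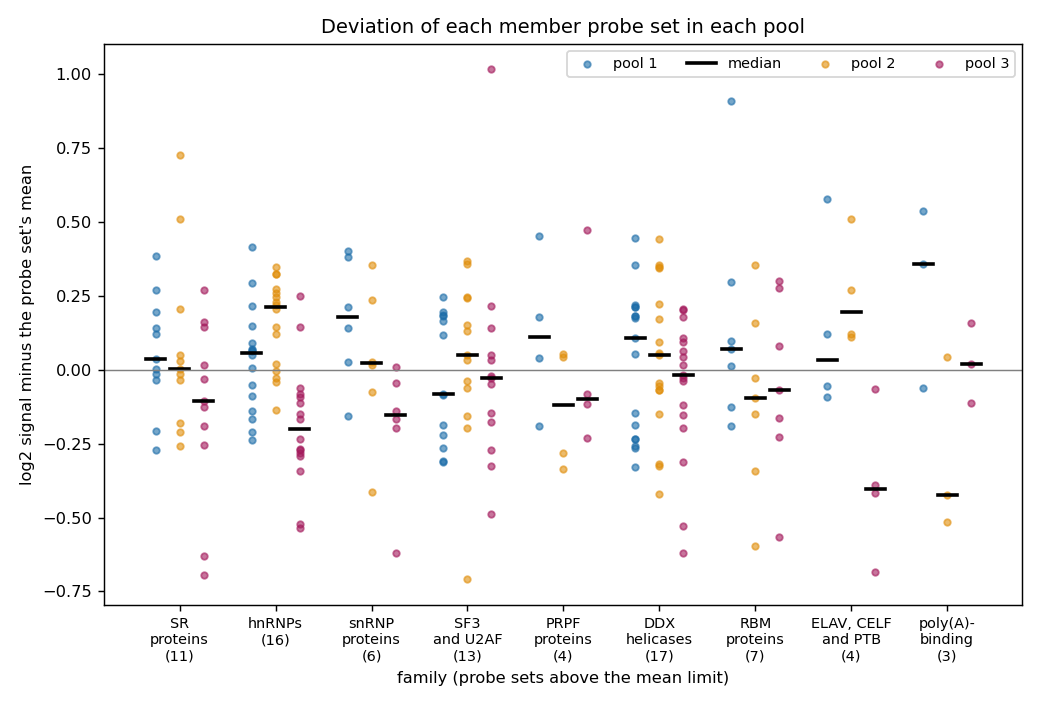
Log2 signal minus the probe set's own mean over the 3 pools, for each member above the mean background limit (points) by family and pool, with the number of sets in brackets and black bars for medians. The pool 3 medians are lowest for the ELAV, CELF and PTB group at -0.40 and the hnRNPs at -0.20, and near 0 for the DDX helicases at -0.02.

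RNA-processing genes outside these name families were read in the same way. Of 86 listed genes 66 were measured, by 92 probe sets. Of these sets, 43 (46.7%) were above background on all arrays, against 26.6% of all probe sets. Of the 52 above background on average, 28 (53.8%) were lowest in pool 3, against 36.4% of all such probe sets. In 11 of the 52 pool 3 was highest, against 32.3%. The median deviation of the 52 was 0.06, 0.04 and -0.12, against 0.03, -0.01 and -0.02. Sfpq, a splicing factor of paraspeckles, read 2161, 1575 and 895.2 on its only set above background, and its partner Nono read 2713, 3526 and 2204 on its brighter set. Tardbp (TDP-43), which represses cryptic exons, read 784.7, 992.1 and 680.0 and 762.4, 1190.4 and 506.6 on its 2 sets. All of these were lowest in pool 3. Tra2b, an SR-like activator, read 1519.5, 2508 and 1499, and the SR protein kinase genes Clk1 and Clk4 read 4489, 4202 and 4962 and, on the brighter Clk4 set, 651.5, 651.0 and 552.6. Ybx1, a cold-shock domain protein, had its highest signal in pool 3, as did Clk1, and read 17657, 19844 and 23784.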

How the data were processed

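The authors' deposited table gives 1 linear intensity for each of 12488 probe sets on each of 3 arrays. The sources used here do not say how probe readings were condensed into it. The means after trimming 2% at each end were 500.3, 500.2 and 500.3, so intensities were used as deposited. Of 12422 non-control probe sets, 10833 had 1 symbol in GEO's platform annotation, 396 several and 1193 none here. Members were the sets with 1 matching symbol, and all 141 matched a RefSeq gene by Entrez number. Values below 1 were set to 1 before log2. SD and range were taken over the 3 pools. The limit rested on 98 probe sets of 82 genes, of which 6 sets exceeded it on all arrays. Calculations used pandas 2.3.3 and numpy 2.4.6 and were tested on simulated data. The number of arrays limits the precision, and because the labels name no litters, spread between pools can be partly technical. Genes were named by rule: members early in a written order for each family, the 12 widest and 8 narrowest ranges, and genes with 1 set above background on all arrays and another on none. A few others were named after their values were seen. Members and lists were chosen with earlier results of these data known. Planned protein features were not analysed here. Alternatives tried were other background percentiles, quantile normalization, another floor, plain sets only, 1 set per gene, fewer families and leaving out each pool.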

Additional observations from a re-analysis of the deposited data

How the results depend on the processing

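The number of members above background on all arrays stayed within 1.5 times the reported 70 under every alternative tried, from 51 to 105, as did the median SD (0.19 to 0.28 on the log2 scale) and the number lowest in pool 3 (32 to 58). The 51, without the Ddx and Rbm families, were 56.7% of 90 sets, against 26.6% of all probe sets. The 105, with the limit at the 75th percentile, were 74.5%, against 46.6%. At these settings 56.1% and 48.7% of members above the mean limit were lowest in pool 3, against 36.4% and 36.1% of all such sets. The median deviation in pool 3, -0.11 as reported, ran from -0.12 to -0.059, the last without pool 1. That in pool 1 went from 0.066 to -7.7e-05 without pool 3, and that in pool 2 from 0.044 to 0.095 with the limit at the 75th percentile. Taking signals below background at the limit, chosen after seeing the data, gave 5 members with a range over 1 log2 unit in place of 7. The reported 52 members above background on no array became 17 with the limit at the 75th percentile, against 4446 of all 12422 probe sets. The 7 with a range over 1 log2 unit became 15 of 119, against 1220 of 6853. With that limit 56 of the 119 sets above the mean limit (47.1%) were highest in pool 2, against 36.3% of all such sets. In 32 (26.9%) pool 2 was lowest, against 32.8%. Plain sets only (107), with the limit also taken from plain sets, gave 23 above on no array and 4 with a wide range. Over all plain sets these were 5148 of 9614 and 406 of 3804. With 1 set per gene (102) they were 28 and 4, against 4317 of 8251 and 339 of 3305. Leaving out the Ddx and Rbm families (90 sets) gave 29 above on no array, against 60.4% of all probe sets. Of the 57 then above the mean limit, pool 1 was lowest in 13 (22.8%, against 27.6%) and pool 2 in 12 (21.1%, against 36.0%). These last 3 settings cover fewer sets by construction. Leaving out each pool in turn, with 2 arrays left, gave 1 to 4 with a wide range. The number highest was 39 to 56 in pool 1, 40 to 51 in pool 2 and 28 to 29 in pool 3. The number lowest was 28 to 40 in pool 1 and 29 to 39 in pool 2. Pool 1 was highest in 66.7% without pool 2 and 49.4% without pool 3, against 53.2% and 52.8% of all such sets. For pool 2 these were 63.75% without pool 1 and 50.6% without pool 3, against 50.2% and 47.2%. Pool 3 was highest in 36.25% without pool 1 and 33.3% without pool 2, against 49.8% and 46.8%. Background on these arrays limits what can be read from the 60 dimmer members. No paired analysis was possible because there is 1 group.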

Other observations

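Probe sets that carried a member symbol together with that of a pseudogene or predicted gene were left out by the rule. Of these 10 sets, 6, including those for Rbm3, a cold-inducible RNA-binding protein, and Snrpd2, an Sm ring protein, were above background on all arrays. The Rbm3 set read 2019, 3005 and 2267 in pools 1, 2 and 3, the Snrpd2 set 3364, 3902 and 2945, the Snrpa set 943.0, 1383 and 738.9, the Rbm10 set 722.8, 599.3 and 456.3 and the brighter Hnrnpa3 set 3819, 4024 and 2933. All but the Rbm3 set were lowest in pool 3.

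X-linked probe sets were looked at after the Ddx3x values had been seen. The order of pool 2 over pool 1 over pool 3, which Ddx3x and Xist shared, was found in 29 of 103 X-linked probe sets above background on average (28.2%), against 19.4% of all 4081. Because the order was taken from Ddx3x and Xist, which are X-linked themselves, this share is a description and not separate support. Hnrnph2, the other X-linked member, had it too, at 335.4, 496.9 and 260.5, though above background in no pool. The Y-linked Eif2s3y read 357.4, 332.2 and 476.5 on an _f_at set, above background in pool 3 alone. Kdm5d and Uty were not above background in any pool. Whether the order of Ddx3x follows the sex of the pooled mice was not tested.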
